A study of Mus musculus and Heterocephalus glaber with 4 samples.

Results

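Control skin fibroblasts of the naked mole rat and of the mouse were compared by the layout of their open chromatin along the genome. The 63258 highest-scoring peaks of each control list were taken, and of these the peaks on naked mole rat scaffolds whose last taken peak ended beyond 1 Mb and on mouse autosomes were kept. This left 62365 naked mole rat peaks on 215 scaffolds and 61449 mouse peaks on 19 autosomes, 123814 of the 302336 peaks in the 4 lists of the series. The number 63258 is the length of the shortest list, that of mouse cells carrying large T antigen. The last peak taken scored 79.5 in the naked mole rat list and 66.7 in the mouse list, and the first peak left out had the same score in each, so position broke the tie.

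The series holds 4 ATAC-seq libraries, 1 control library and 1 library of cells given SV40 large T antigen per species. The naked mole rat cells (Heterocephalus glaber) grew at 32 °C and the mouse cells at 37 °C, so species and temperature cannot be told apart here. The rest of the culture was shared: passage 16, 15% serum, 3% oxygen and 5% CO2. No treatment is given for the control cells beyond the label of control. The labels call the cells adult skin fibroblasts and give no strain, no age beyond adult and no number of animals, and the series text speaks of cell lines, so whether a list stands for 1 animal is not given. The lists name no genes, and the labelled cell type was not checked against marker genes. With 1 library per species there was no replicate error, and no difference between species was tested. The 95% intervals below cover counting error over peaks, gaps, stretches or windows, treat neighbours as independent and are therefore too narrow. Read depth was not given in the sources used here, and the score has no known common scale between lists.

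In ATAC-seq a transposase cuts DNA that nucleosomes leave exposed and inserts sequencing adapters there, so a peak marks a site of open chromatin. Such sites are mostly promoters and enhancers. They gather where genes are dense and are sparse in long gene-poor tracts packed in heterochromatin at the nuclear edge. Fibroblasts, the matrix-producing cells of connective tissue, carry their own set of open enhancers beside promoters shared with most cells. The naked mole rat is a long-lived rodent, and the title of the series concerns the resistance of its cells to reprogramming and the stability of their epigenome. Positions in the 2 genomes cannot be set against each other without an alignment, so only the distributions of spacing, width and clustering were compared.

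Peaks per Mb were about equal in both species, but this measure cannot show whether open sites were equally dense. The same number of highest-scoring peaks was taken from each list, and nearly all were kept. The density and the difference below therefore follow mostly from that rule and from the spans. The interval treats the counts as free, although the rule largely set them. From first to last peak of each sequence, the naked mole rat scaffolds spanned 2509 Mb and the mouse autosomes 2411 Mb. The naked mole rat list had 24.9 peaks per Mb (95% interval 24.7 to 25.0) and the mouse list 25.5 (25.3 to 25.7), a difference of -0.63 peaks per Mb (-0.91 to -0.35). Peaks covered 97.8 Mb of naked mole rat sequence, 3.9% of the span, and 96.5 Mb of mouse sequence, 4.0% of the span. The order of the species was not stable. With all peaks of each list, naked mole rat sequence held 31.5 peaks per Mb and mouse sequence 30.2, and with chromosome X counted in, the mouse value was 24.6.

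Density varied more among scaffolds than among whole autosomes, but not more than among pieces of autosomes of the same length. The mouse autosomes ranged from 20.3 peaks per Mb on chromosome 14 to 30.6 on chromosome 11, with a median of 26.0 and an SD of 2.74 over 19 autosomes. The 87 scaffolds with a span of at least 10 Mb ranged from 7.93 peaks per Mb on JH602121 to 37.6 on JH602120, with a median of 25.6 and an SD of 6.39. Of these scaffolds, 19 were sparser than every autosome, 13 were denser and 55 lay within the autosomes' range. Scaffolds are shorter than chromosomes. The median span was 7.36 Mb over all 215 scaffolds, of which the 87 are the longer ones, and 122 Mb over the autosomes. The longest scaffold spanned 78.8 Mb and the longest autosome 194 Mb. Cutting the autosomes into pieces with the spans of the scaffolds, a step added after seeing the data, gave 80 mouse pieces with a span of at least 10 Mb, from 5.44 to 40.2 peaks per Mb, with a median of 26.3 and an SD of 7.02. None of the 87 scaffolds lay outside the range of these pieces.

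**Figure D1:**
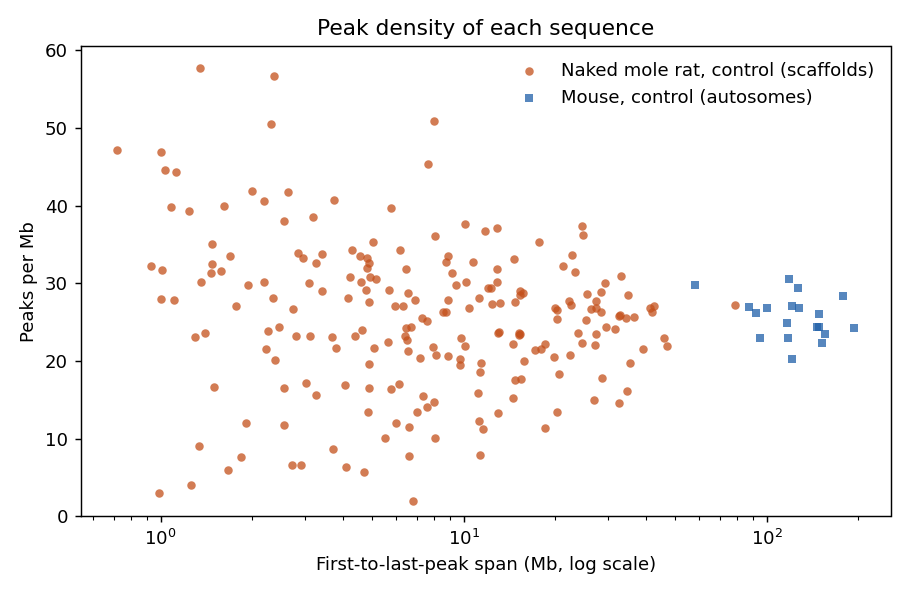
Peaks per Mb (vertical axis) against first-to-last-peak span in Mb (horizontal axis, log scale), with 1 point for each of 215 naked mole rat scaffolds and 19 mouse autosomes of the control lists. The autosomes lie between 20.3 and 30.6 peaks per Mb, and the scaffolds spread on both sides of that range, most widely where the span is short.

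JH602121 stood apart among the long scaffolds in several ways at once. Its 90 peaks over 11.3 Mb had, among the 87 long scaffolds, the longest median gap (30732 bp), the largest share of span in peak-free stretches of at least 500 kb (55.5%, in 5 stretches), the largest median width (1643 bp) and the smallest share of peaks with a neighbour within 10 kb (34.4%). The large T list also had 90 member peaks on this scaffold, 7.93 per Mb, with 54.1% of the span in such stretches. Its width did not stand apart there: the large T median was 1286 bp, under the median of 1382.5 bp over the 87 long scaffolds. JH602120, at the dense end, held 382 control and 412 large T peaks over 10.1 Mb, with 7.0% of its span in such stretches in each list. JH602052, singled out after its values were seen, had the smallest median width of the 87 scaffolds (1087 bp) and the smallest share of peaks at least 2 kb wide (9.01%). In the large T list its median width was 1252.5 bp, its share of wide peaks 16.9% and its density 26.1 peaks per Mb, against 19.8 in the control list.

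Neighbouring sites were typically farther apart in the naked mole rat list, while the longest gaps were in the mouse list. Gaps were measured from the end of a peak to the start of the next on the same sequence. The median gap was 17309 bp in naked mole rat (95% interval 17093 to 17519, 62150 gaps) and 16126 bp in mouse (15950 to 16307, 61430 gaps), a difference of 1183 bp (901 to 1457). At the 75th percentile the gap was 38234 bp in naked mole rat and 34173 bp in mouse, at the 95th percentile 121194 and 111320 bp. At the 99th percentile the order turned, with 350229 bp in naked mole rat and 370323 bp in mouse. The longest gap measured 3.88 Mb in naked mole rat and 7.64 Mb in mouse. At the short end, 2.4% of naked mole rat and 1.82% of mouse gaps were under 1 kb. The naked mole rat gaps were thus less dispersed about their mean: the SD was 2.65 times the mean gap of 38802 bp, against 3.18 times the mean of 37681 bp in mouse. Gaps that run off a scaffold are not seen, which shortens the long tail in naked mole rat. Neither this ratio nor the longest gap was measured on autosomes cut to scaffold length. With all peaks of each list, the median gap was 13536 bp in naked mole rat and 13831 bp in mouse, so the order of the medians depended on list length. The median gap also depends on taking the same number of peaks over unlike spans. At an equal number of peaks per Mb, with the 59928 highest mouse peaks kept, the mouse median was 16552 bp. The difference was then 756.5 bp, below the interval above.

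Split by gap length, both genomes divided their sequence differently. Gaps under 10 kb took 4.33% of the naked mole rat and 4.73% of the mouse span, and gaps of 10 to 50 kb took 29.5% and 30.7%. Gaps of 50 to 100 kb took 19.6% in naked mole rat and 17.1% in mouse, and those of 100 to 500 kb took 27.0% and 24.3%. Gaps of at least 500 kb took 15.6% of the naked mole rat span and 19.2% of the mouse span. Naked mole rat sequence therefore lay more in gaps of middle length and mouse sequence more in very long ones. With the mouse autosomes cut into scaffold-sized pieces, the mouse share in gaps of at least 500 kb was 16.7%, so much of the latter difference was not seen at equal sequence length.

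**Figure D2:**
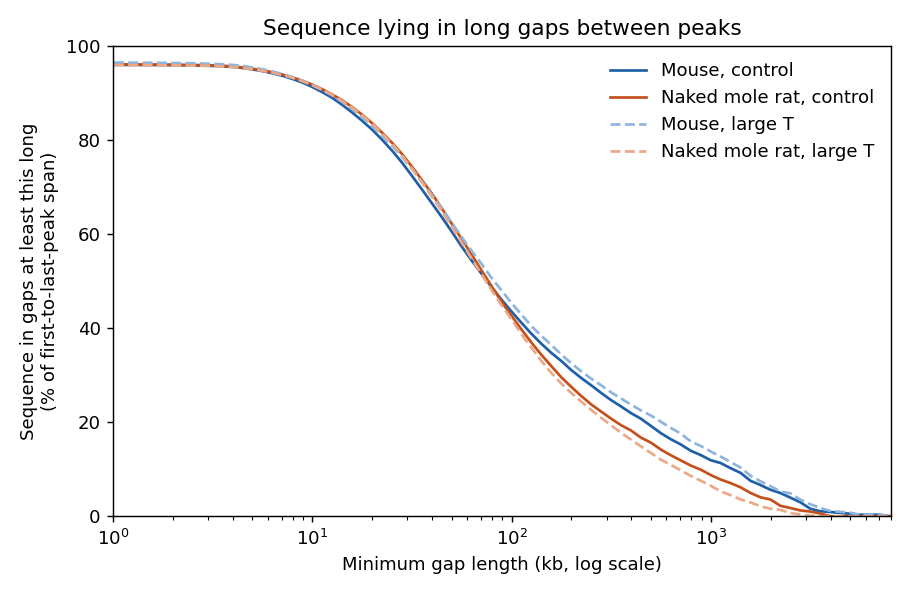
Share of the span (vertical axis, %) that lies in gaps at least as long as the value on the horizontal axis (kb, log scale), for the control lists (solid lines) and the large T lists (dashed lines) of both species. Past about 100 kb both mouse lines run above both naked mole rat lines, and at 500 kb the control lines stand at 19.2% and 15.6%.

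Long stretches with none of the peaks taken made up less of the naked mole rat span. Many of them held lower-scoring peaks of the same list, as given below, so they are not all without open sites. Of at least 500 kb, 386 stretches with 393 Mb in all were found in naked mole rat and 415 with 464 Mb in mouse, a difference in the share of span of -3.61 percentage points (95% interval -6.07 to -1.16). Of at least 1 Mb there were 131 and 154, taking 8.77% and 11.9% of the span, and of at least 2 Mb 35 and 47, taking 3.58% and 5.64%. All 19 autosomes and 136 of the 215 scaffolds held a stretch of at least 500 kb. Among autosomes the share ranged from 8.96% on chromosome 10 to 29.2% on chromosome 14, with a median of 18.5%. Among the 87 long scaffolds it ranged from 0, on 8 scaffolds, to 55.5% with a median of 14.0%, and 31 of them lay below every autosome. The mouse pieces of like length ranged from 0, on 6 pieces, to 66.7% with a median of 15.0%.

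The ends of scaffolds bear on this comparison, since a stretch that runs off a scaffold is not seen. When the mouse autosomes were cut in this way, into 216 pieces of any length with 197 gaps dropped, the mouse share was 16.7% and the difference -1.06 percentage points. Most of the difference in long stretches was therefore no longer seen at equal sequence length. The mouse share of 16.7% then lay within the naked mole rat counting interval of 14.1% to 17.3%. How much of any stretch was undetermined or unmappable sequence was not measured here.

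The longest stretches were not all empty of weaker or other peaks. In mouse the longest ran on chromosome 7 from 39060818 to 46703875 (mm9) and held no lower-scoring control peak and 2 large T peaks. It was followed by 5.17 Mb on chromosome 14 (106900478 to 112073644), with 1 control and 1 large T peak, and 4.61 Mb on chromosome 8 (98762277 to 103374732), with no further control peak and 1 large T peak. In naked mole rat the longest lay on JH602119 (6609358 to 10490634, 3.88 Mb), with 4 lower-scoring control and 18 large T peaks inside. JH602092 (11732630 to 15566018, 3.83 Mb) held 4 and 5, and JH602061 (15269900 to 18930669, 3.66 Mb) held 0 and 4. The 3 named mouse stretches thus held at most 2 large T peaks each, while that on JH602119 held 18, but these counts come from whole large T lists, which held 63258 mouse and 83297 naked mole rat peaks.

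Over all stretches of at least 500 kb, 167 of 386 in naked mole rat (43.3%) and 215 of 415 in mouse (51.8%) held no lower-scoring control peak, with 17403 and 11862 such peaks available. Among the 63258 highest large T peaks, 52 of the 386 naked mole rat stretches (13.5%) and 137 of the 415 mouse stretches (33.0%) held none. Taken the other way, 134 of 367 stretches of the naked mole rat large T list (36.5%) and 57 of 450 of the mouse large T list (12.7%) held none of the 63258 highest control peaks. In naked mole rat a control stretch thus held a large T peak more often than a large T stretch held a control peak, and in mouse the order was the opposite. This difference was not tested. The peaks that border stretches were narrower than the rest and below the median score in both species. Their median width was 1161 bp in naked mole rat and 1051 bp in mouse, against 1365 and 1333 bp for the other members, and their median score percentile within the list was 41.8 and 43.0.

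Counted in windows of 1 Mb, open sites were spread more evenly along the naked mole rat scaffolds. The 2404 naked mole rat windows held 24.7 ± 13.9 peaks (mean and SD over windows) and the 2403 mouse windows 25.5 ± 16.3. The variance was 7.83 times the mean in naked mole rat and 10.4 times in mouse. In naked mole rat 84 windows (3.49%, 95% interval 2.80 to 4.31) were empty and in mouse 139 (5.78%, 4.88 to 6.79). At the other end, 371 naked mole rat windows (15.4%) and 558 mouse windows (23.2%) held at least 40 peaks. The densest 10% of windows held 19.4% of naked mole rat and 20.4% of mouse peaks, and the sparsest 50% held 26.6% and 22.9%. Windows of 100 kb and 5 Mb gave the same order, with variances of 2.07 and 2.33 times the mean at 100 kb and 17.1 and 22.5 times at 5 Mb. With the mouse autosomes cut to scaffold-sized pieces, the mouse variance was 9.89 times the mean, and 4.29% of mouse windows were empty. That share of empty windows lay within the naked mole rat interval of 2.80 to 4.31.

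**Figure D3:**
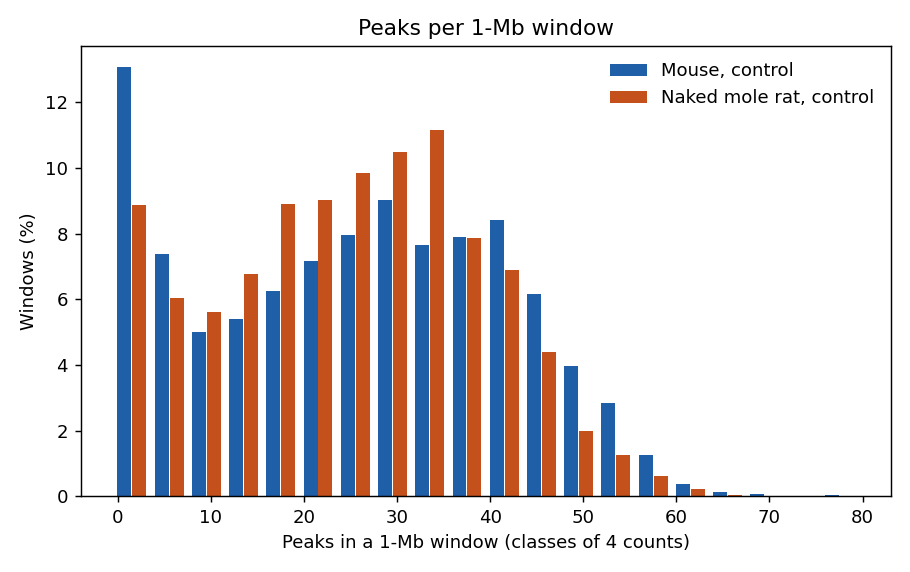
Share of 1-Mb windows (vertical axis, %) by the number of peaks in the window (horizontal axis, classes of 4 counts), for the control lists of naked mole rat (2404 windows) and mouse (2403 windows). Mouse windows made up 23.2% at 40 peaks or more, against 15.4% in naked mole rat, and were also more frequent in the classes from 0 to 7 peaks.

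The densest mouse windows lay on chromosome 2 at 167034734 to 168034733, with 76 peaks, and on chromosome 10 at 80012563 to 81012562 and chromosome 2 at 30034734 to 31034733, with 68 peaks each. The densest naked mole rat windows held 64 peaks on JH602071 (18015436 to 19015435), 62 on JH602062 (17104618 to 18104617) and 61 on JH602064 (11000334 to 12000333). The last count was shared by 3 windows. Peaks in dense windows were wider than peaks in sparse ones in both species. Median widths were 1466 bp in naked mole rat and 1420 bp in mouse windows of 40 or more peaks, and 1170 and 1068.5 bp in windows of 1 to 9. In mouse, 24.9% of the peaks in dense windows were at least 2 kb wide, against 12.4% in sparse ones. The same shares in naked mole rat were 24.6% and 15.5%.

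Close neighbours were about equally common in both species. A member lay within 10 kb of another for 52.2% of naked mole rat peaks (51.8 to 52.6) and 53.1% of mouse peaks (52.7 to 53.5), a difference of -0.87 percentage points (-1.43 to -0.32). The sign depended on the distance and the list: within 5 kb the shares were 24.7% and 23.7%, and with all peaks of each list, within 10 kb, 62.0% and 59.6%. Joining peaks less than 10 kb apart gave 12776 clusters and 29812 single peaks in naked mole rat, and 12544 clusters and 28838 single peaks in mouse. Clusters of at least 5 peaks held 5.57% of naked mole rat peaks (609 clusters) and 6.73% of mouse peaks (717 clusters), and 7 and 16 clusters held 10 or more.

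Clusters of open sites of this kind often mark groups of enhancers or tandem promoters, though the lists do not show which. The largest naked mole rat cluster held 13 peaks over 82.8 kb of JH602238 (504153 to 586967), with a median width of 1764 bp. Another 3 clusters held 11 peaks, among them those on JH602055 (3873506 to 3965973) and JH602079 (8950184 to 9026693). In mouse 5 clusters held 12 peaks, among them those on chromosome 8 (11327256 to 11420303), chromosome 7 (19853813 to 19931312) and chromosome 13 (23591541 to 23678905). The last had the largest median width of the 6 clusters named, 2426.5 bp. Peaks in clusters of 5 or more were wider than single peaks: 1525 against 1301 bp in naked mole rat and 1514 against 1261 bp in mouse. Of these clusters, 77.3% in naked mole rat and 78.2% in mouse held a peak of at least 2 kb.

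Peak widths were nearly alike. The median width was 1362 bp in naked mole rat (1356 to 1369) and 1329 bp in mouse (1322 to 1335), and the quartiles ran from 1027 to 1888 bp and from 1013 to 1868 bp. Broad peaks, of 2 kb or more, were 21.4% of both lists (13364 and 13122 peaks), with a difference of 0.074 percentage points (-0.38 to 0.53). They held 37.5% of the covered sequence in naked mole rat and 38.5% in mouse. Wider still, 5.39% of naked mole rat and 6.30% of mouse peaks reached 3 kb, and 278 (0.446%) and 436 (0.710%) reached 5 kb. The order of the medians turned with list length: with all peaks it was 1211 bp in naked mole rat and 1224 bp in mouse, and among the 30000 highest peaks 1740 and 1747 bp.

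Higher-scoring peaks were wider in both species, and more so in mouse. Spearman's rho between score and width was 0.60 across the 62365 naked mole rat peaks and 0.65 across the 61449 mouse peaks, a difference of -0.056. With all peaks of each list rho was 0.68 and 0.70, a smaller difference of -0.020. These are correlations across the peaks of 1 list, which share a library and are not independent replicates. From the lowest to the highest score decile of each list, the median width went from 936 to 2078 bp in naked mole rat and from 919 to 2201 bp in mouse. The medians were higher in naked mole rat in each decile from 1 to 7 and higher in mouse from 8 to 10. The upper 2 score deciles held 45.1% of the naked mole rat and 50.9% of the mouse peaks of at least 2 kb. Per sequence, rho ranged from 0.63 to 0.69 among autosomes and from 0.46 on JH602108 to 0.71 on JH602124 among the 87 long scaffolds, and 65 scaffolds lay below every autosome. Among the 80 mouse pieces of like length rho ranged from 0.49 to 0.76 with a median of 0.67, and 80 of the 87 scaffolds lay below that median, while 3 lay below every piece.

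**Figure D4:**
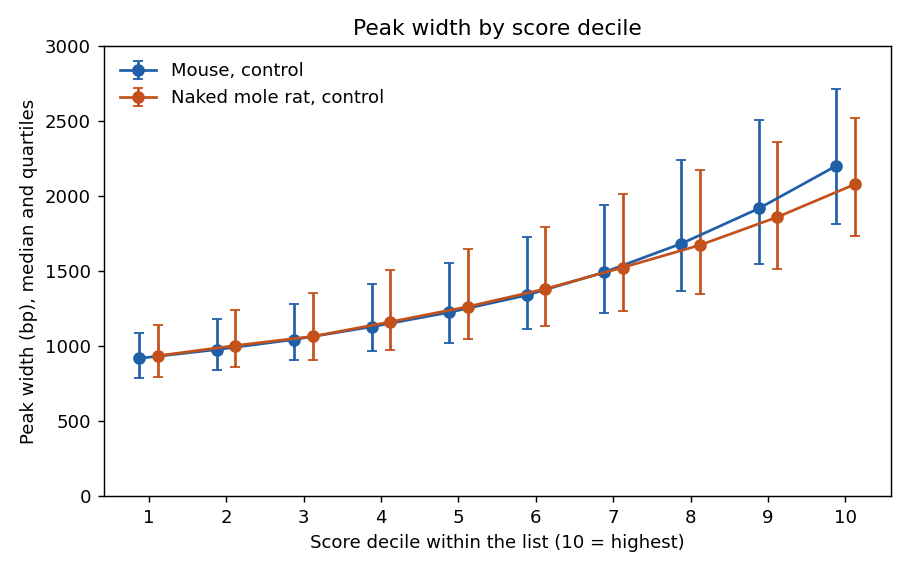
Peak width in bp (vertical axis) by score decile within each control list (horizontal axis, 10 the highest), with points at the median and bars from the lower to the upper quartile over the peaks of a decile. The naked mole rat medians are slightly higher in deciles 1 to 7, the medians are closest in decile 8 (1673 bp in naked mole rat and 1683 bp in mouse), and mouse is higher in the top decile, at 2201 bp against 2078 bp.

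The very widest peaks departed from this trend. Peaks of 2 to 3 kb had a median score percentile of 78.6 in naked mole rat and 81.5 in mouse, but peaks of 5 kb or more stood at 50.7 and 58.3. Of the 100 widest peaks, a number chosen after their values were seen, 76 in naked mole rat and 75 in mouse scored below the median of their list, and 0 in the highest decile of either list. The widest naked mole rat peaks measured 7888 bp on JH602140 (2874061 to 2881948), 7879 bp on JH602056 (12472173 to 12480051) and 7709 bp on JH602066 (15371548 to 15379256), and ranked 49267, 50333 and 47255 of 62365 by score. The widest mouse peaks measured 8243 bp on chromosome 12 (109541402 to 109549644), 8135 bp on chromosome 14 (51707217 to 51715351) and 7818 bp on chromosome 2 (13493253 to 13501070), and ranked 56353, 50900 and 50647 of 61449. Scores below the median were less frequent among all peaks of 5 kb or more, at 48.9% in naked mole rat and 37.6% in mouse. These shares were still above those of peaks of 2 to 3 kb, 18.4% and 15.1%. In the highest score decile were 1.80% and 0.92% of peaks of 5 kb or more, against 28.0% and 31.4% at 2 to 3 kb.

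The strongest sites were the least often accompanied. In the highest score decile, 40.5% of naked mole rat peaks (39.3 to 41.7) and 47.2% of mouse peaks (46.0 to 48.5) had another member within 10 kb, a difference of -6.71 percentage points (-8.46 to -4.95). In the lowest decile the shares were 54.9% and 54.7%. The median distance to the nearest peak in the highest decile was 12243 bp in naked mole rat and 10513 bp in mouse. Taken alone, the peaks of the highest decile had a median gap of 188 kb in naked mole rat (181 to 195) and 160 kb in mouse (153 to 166). With neighbours counted from all peaks of each list the shares were 48.3% and 52.8%, and with distances between midpoints 31.3% and 35.6%, which left the naked mole rat value below the mouse value in both cases.

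**Figure D5:**
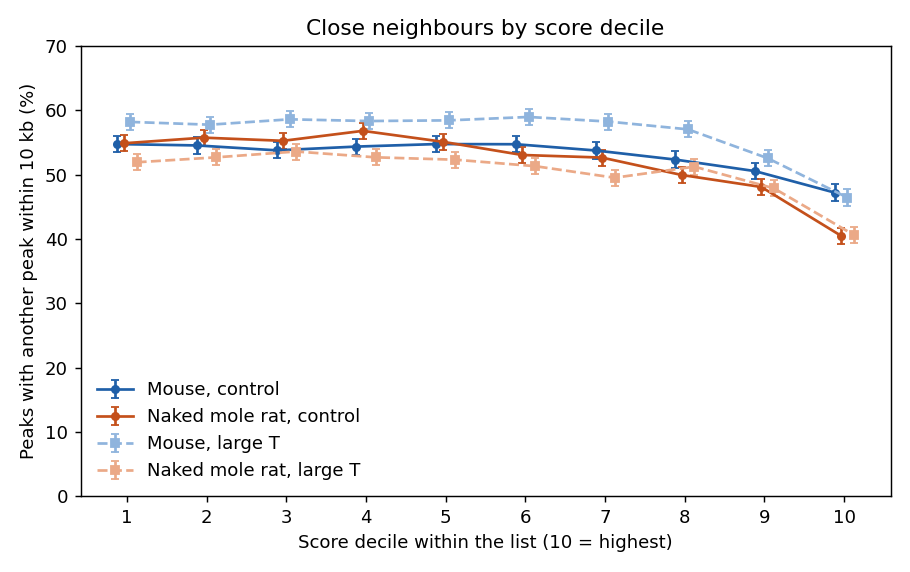
Share of peaks with another member within 10 kb (vertical axis, %) by score decile within each list (horizontal axis, 10 the highest), for the control lists (solid) and large T lists (dashed), with bars for the exact 95% binomial interval over peaks. In the highest decile the naked mole rat lists stand at 40.5% and 40.6% and the mouse lists at 47.2% and 46.4%.

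Isolated sites were few and narrow. The naked mole rat list held 934 peaks with no other within 100 kb (1.5%) and the mouse list 964 (1.57%). Their median widths were 1109 and 1007 bp and their median score percentiles 43.3 and 39.3. Peaks with a neighbour under 5 kb away were the widest class, at 1452 and 1433 bp, although their median score percentiles were low, 40.5 and 42.9. Score was higher at middle distances, with percentiles of 53.8 in both species at 5 to 10 kb, and 54.4 in naked mole rat and 53.4 in mouse at 10 to 25 kb. Widths of neighbouring peaks were weakly alike in both species (Spearman's rho 0.11 in naked mole rat and 0.13 in mouse, across neighbours on the same sequence), and scores less so (0.036 and 0.042).

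The large T lists, the only other libraries of each species, were measured by the same rule. They are not replicates of the controls, since they differ from them by large T antigen. Both libraries of a species share its genome, assembly and culture temperature, so a shared direction is not independent of the controls. All 7 measures (density, median gap, median width, share of broad peaks, rho of score with width, share with a close neighbour and share of span in long stretches) differed between species in the same direction as in the control members, and each by more. For density, the direction follows mostly from taking the same number of peaks from each list over unlike spans. In the controls themselves the direction for density, gap, width, broad peaks and close neighbours turned with all peaks of each list. The control difference in broad peaks also lay within its counting interval. The large T differences were not measured with all peaks of each list, so whether the shared direction of these 5 measures depends on list length is not known. The median gap was 17914 bp in naked mole rat and 15363 bp in mouse, and the share of span in stretches of at least 500 kb was 13.5% and 21.4%. The largest departure from the control comparison was in width. Median widths were 1404 and 1159 bp, and 24.6% and 15.3% of peaks were at least 2 kb wide. All 63258 peaks of the mouse large T list were used, down to its minimum score, whereas 75.9% of the naked mole rat large T list was used, so the lists were not used to the same depth. In the controls the shares used were 78.4% in naked mole rat and 84.2% in mouse.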

How the data were processed

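ATAC-seq peak lists of 4 libraries were used, 1 per group. In each deposited list, per the files themselves, the columns are sequence name, start, end, a peak name that begins with MACS, and a score. What the authors' score measures is not stated here by any source, and all lists start at about 50. The authors' start and end are other whole-number values in bp and were read as BED intervals, with starts printed 1-based. Per the submitters' processing notes, CASAVA (with 1.4 beside it), Bowtie, SAMtools and bedtools were used and the build was mm9. The scaffold names are not mm9 names, and their assembly was not given in the sources used here, nor were roles of tools, filters and depth, so the number of peaks cannot be separated from depth.

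Members were the 63258 highest peaks by score (ties by position) on autosomes, or on scaffolds with a taken peak ending beyond 1 Mb. Scaffolds were not sorted into autosomal and sex-linked ones. Intervals are exact binomial (shares of peaks or windows), exact Poisson (density) or order-statistic (medians), at 95%. For the share of span in long stretches, the share was scaled by an exact Poisson interval of the number of stretches. That interval leaves out the spread of stretch lengths. For differences, intervals were combined by square-and-add. Score deciles and percentiles were formed among members of 1 list. Windows were laid from each sequence's first peak. Regions named by rule are, per species, the 3 widest peaks, longest stretches, largest clusters and densest windows (ties by position), and the sparsest and densest sequence of at least 10 Mb. The functions were tested on simulated data. The members, lists and measures were chosen with earlier results of these data known. The alternatives tried changed list length, sequences, sequence length, density and thresholds. No annotation or genome of the builds used was at hand, so genes and sequences are not analysed here. Python 3.11.15, numpy 2.4.6, pandas 2.3.3, scipy 1.17.1 and matplotlib 3.10.9 were used.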

Additional observations from a re-analysis of the deposited data

Results flagged for a closer look

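Some peaks were taken by score but lay outside the sequences compared. Those on chromosome X entered only the alternatives that count it in. In the mouse control list 1798 such peaks were on chromosome X, at 11.2 peaks per Mb, with a median gap of 25096 bp and 46.2% of the span in peak-free stretches of at least 500 kb. Of the 87 naked mole rat scaffolds of at least 10 Mb, JH602121 (7.93 peaks per Mb) was sparser than mouse X, and JH602123 followed at 11.2 peaks per Mb with 36.6% of its span in such stretches. Another 11 mouse peaks were on chromosome Y. In the naked mole rat control list 893 taken peaks lay on 350 scaffolds with no taken peak beyond 1 Mb. Of these scaffolds 247 carried 1 peak, and 181 of the peaks began within 1 kb of the start of their scaffold. Of the 893, 14.6% were in the highest score decile of the taken peaks. None of these values was tested.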

How the results depend on the processing

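Of 60 alternative values over 10 measures of the naked mole rat minus mouse difference, 47 kept their direction. The direction was kept in every alternative tried for the rho of score with width, the span in long stretches, window variance, empty windows and close neighbours of the highest decile. For long stretches and empty windows, a kept direction does not mean a clear difference at equal sequence length. With mouse cut into pieces, the mouse values (16.7% and 4.29%) lay within the naked mole rat intervals (14.1 to 17.3 and 2.80 to 4.31). All peaks: density 1.31 per Mb, median gap -295 bp, width -13 bp, wide peaks -1.03 points, rho -0.020, close neighbours 2.32 points. The 30000 highest: -0.14 per Mb, 4957.5 bp, -7.0 bp, -2.01 points, -0.066, -2.77 points, long stretches -7.30 points, window variance over mean -1.70. Scaffolds beyond 5 Mb: wide peaks -0.15 points. Chromosome X included: density 0.26 per Mb. Length from position 1: density -0.28 per Mb. Mouse cut into pieces: long stretches -1.06 points, empty windows -0.80 points. Equal density (59928 mouse peaks): median gap 756.5 bp, width 17.0 bp, wide peaks -0.39 points, close neighbours 0.17 points. Wide from 1.5 kb: 1.90 points; from 3 kb: -0.92 points. Neighbours within 5 kb: 0.93 points; within 20 kb: -1.98 points. Highest decile, neighbours from all peaks: -4.47 points; between midpoints: -4.28 points. The cause of these shifts was not tested. The other 31 values stayed within the counting interval of the first value. The analyses of window variance, empty windows, the highest decile and the span without the 3 longest stretches (-3.40 points) were chosen after seeing the data. No paired analysis was possible because each group has 1 library. Depth is unknown, so how far each list reaches into weak sites is unknown too.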
